A study of Bos taurus with 48 samples.

Results

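The ion and metal solute carriers are membrane proteins that move bicarbonate, chloride, sodium, potassium, protons, calcium, phosphate, sulphate and metal ions across cell membranes. They were chosen by name: a probe was a member when its gene name, or the symbol closing its description, belonged to the families SLC4, SLC8, SLC9, SLC11, SLC12, SLC13, SLC20, SLC24, SLC26, SLC30, SLC31, SLC34, SLC39, SLC40 or SLC41. The rule took 84 of 21475 probes on the array, and these named 77 of 19865 genes. The rule used names alone.

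As background, carriers work as exchangers, cotransporters or uniporters that use existing ion gradients, so the direction of transport is set by the gradients and by the membrane in which the carrier sits. In the uterus, epithelial carriers set the ions, pH and volume of the fluid in which the embryo grows before attachment, and metal carriers govern the iron, zinc, copper and manganese that pass between mother and conceptus. Ruminant endometrium has raised aglandular areas, the caruncles, where the placenta later attaches, and gland-rich intercaruncular areas between them.

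RNA was taken from both areas of 22 lactating Holstein Friesian dairy cows (ages are not given in the sources used here) with synchronised cycles, all killed at day 17 of the cycle. The RNA of all 44 samples carried Cy5 and was set against a common pool carrying Cy3, with no dye swap, on 48 arrays that included 4 repeats of caruncular samples. The values below are log2 ratios of a sample to that pool, so 0 is the level of the pool, and differences are differences of such ratios. Precision is limited by how many cows each group holds.

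The pregnant group was 12 cows that received a grade 1 embryo at day 7 and carried one at day 17, and the cyclic group was 10 cows without an embryo transfer. Pregnant cows therefore differed from cyclic cows by the transfer itself as well as by the embryo. Of the 12 embryos, 7 were labelled large (over 20 cm and over 75 mg) and 5 small (under 20 cm and under 40 mg). The sample titles labelled 6 pregnant cows fertile and 6 sub-fertile, with no basis given in the labels, and the classes crossed as 3 large fertile, 4 large sub-fertile, 3 small fertile and 2 small sub-fertile.

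The arrays of the tissues were not mixed. The 12 slides of 4 arrays were scanned in 3 sessions, of which the first held intercaruncular samples alone, the second caruncular samples alone, and the third both. Only 1 pregnant cow (Caruncular_Pregnant_9790, slide 10) and 1 cyclic cow (Caruncular_Non-Pregnant_9786, slide 11) had both tissues on 1 slide, and they are called the single-slide cows. Among all tested probes, those past the threshold between tissues in cyclic cows lay in the called direction in 56.0% of cases in the single-slide cyclic cow. Their median difference along that direction was 0.09, against medians from 0.47 to 1.27 in the 9 other cyclic cows. In pregnant cows the corresponding share in the single-slide cow was 71.0% with a median of 0.34, against medians from 0.49 to 1.12 in the 11 other cows. For the carriers below, tissue and slide or scan session therefore cannot be told apart outside these 2 cows, and their within-slide values are given beside each carrier named as past the threshold between tissues. Those values rest on the labels of these 2 cows, and whether their samples or slides were exchanged was not tested.

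Pregnancy was also unevenly spread over slides. A mixed slide was slide 7 for caruncular tissue, with 3 pregnant and 1 cyclic array, and slide 2 for intercaruncular tissue, with 3 pregnant and 1 cyclic array, while slide 10 held 2 pregnant and 1 cyclic caruncular array, some of them repeats. Each scan session held both pregnant and cyclic cows of the tissue it carried. The lowest correlation between arrays was -0.469, between an intercaruncular cyclic sample (Intercaruncular_Non-Pregnant_9778) and a caruncular pregnant one (Caruncular_Pregnant_1943). The direction of the ratios was kept because the study's methods state the dyes.

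Of the member probes, 49 (46 genes) passed the filter, by which 22 or more of the 44 samples had to be well above background with a Cy5 signal of 80 or higher. This was 58.3% of the member probes, against 68.5% of all probes. By role, 17 of 21 zinc carrier probes passed, 11 of 22 for bicarbonate and anion exchange, 7 of 11 for cation-chloride cotransport, 4 of 10 for phosphate, sulphate and dicarboxylate, 3 of 6 for sodium-proton exchange, 3 of 3 for iron and manganese, 2 of 8 for sodium-calcium exchange, 1 of 2 for magnesium and 1 of 1 for copper. The 35 other probes (31 genes with no tested probe) included 19 that reached the minimum in no sample, and 41 probes reached it in all 44. No member probe was saturated on every array of a group.

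Some carriers fell outside the tests and reached the minimum mainly in samples of 1 tissue. Tissue and slide or scan session cannot be told apart for these counts. Signal over background was also lower on intercaruncular arrays (group medians 11.7 and 15.4, against 21.9 and 22.9). The part of slides and array signal in these counts was not tested. SLC8A1, the plasma membrane sodium-calcium exchanger, reached the minimum in 20 of 22 caruncular samples but in 1 of 22 intercaruncular ones. Its caruncular ratios ran from 0.30 to 1.29 (median 0.99) in pregnant cows and from -0.61 to 1.25 (median 0.95) in cyclic cows. Its intercaruncular medians were -0.76 and -0.61, but only 7 of 22 intercaruncular samples were well above background. SLC26A6, an apical anion exchanger, reached the minimum in 13 caruncular samples and 0 intercaruncular ones. SLC4A9, another member of the bicarbonate family, did the opposite, with 9 intercaruncular samples and 0 caruncular ones above the minimum, 8 of the 9 from cyclic cows. The minimum was judged on all spots, and only 7 of the 10 cyclic cows had an intercaruncular SLC4A9 ratio from spots that were not outliers.

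Some other carriers fixed for naming reached the minimum in few samples. SLC26A2, a sulphate carrier, reached the minimum in 1 sample, SLC26A4, an anion exchanger also called pendrin, in 5, and the magnesium carrier SLC41A1 in 5. SLC31A1, the main copper importer, had no member probe. SLC39A9, a zinc importer that was not fixed and was named after its values were seen, was dim as well. It was not well above background in any intercaruncular sample of cyclic cows and in only 2 of 10 of their caruncular samples, so no fold is given.

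Pregnant and cyclic cows were compared to find which carriers differed with an embryo present. In caruncular tissue 4 of 49 member probes passed the threshold (adjusted p under 0.05 and at least 1.5-fold), against 10% of all tested probes. Of these, 3 were higher in pregnant cows (5.78% of all probes) and 1 was lower (4.23% of all probes). At any size, 12 member probes had an adjusted p under 0.05, against 26.9%. In intercaruncular tissue 4 of 49 passed, against 7.28%, all 4 of them higher (4.01% of all probes) and 0 lower (3.27% of all probes), and limma gave 9 at any size with an adjusted p under 0.05, of which 4 were lower, against 20.3%. These shares were near those of all probes, so the counts are not a result about the carriers as a set. The median difference of the member probes was -0.03 in caruncular tissue (-0.04 over all tested probes) and -0.08 in intercaruncular tissue (-0.01).

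Iron carriers come first. SLC40A1, ferroportin, is the only known exporter of iron from cells. In caruncular tissue its ratio ran from -0.11 to 1.37 (median 0.97) in 12 pregnant cows and from -1.08 to 0.82 (median -0.17) in 10 cyclic cows. In intercaruncular tissue the ranges were -1.02 to 0.18 (median -0.22) and -1.40 to -0.09 (median -1.21). The groups overlapped in both tissues, with 7 caruncular and 5 intercaruncular samples of pregnant cows above every cyclic sample. SLC40A1 rose by 0.98 (SE 0.21, adjusted p = 0.0017) in caruncular tissue and by 0.75 (SE 0.17, adjusted p = 0.0042) in intercaruncular tissue, where 11 and 12 of 12 pregnant cows lay above the cyclic mean. Within mixed slides the difference was 0.68 on slide 7, 0.49 on slide 10 and 1.06 on slide 2. Within scan sessions it was 1.02 and 0.27 in caruncular and 0.80 and 0.35 in intercaruncular tissue. The direction was the same in each, but slides 7 and 2 shared their cows, and the 0.35 set 1 pregnant against 1 cyclic array. With slide as a fixed block, where the estimate rests on slide 7 or slide 2 with 1 cyclic sample, the limma adjusted p was 0.722 and 0.345, and with slide as a random block it was 0.0139 and 0.0402.

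The 2 other carriers of the iron group import iron and manganese with protons. SLC11A2, the ubiquitous divalent metal importer, ran from -1.13 to 0.25 (median -0.33) in caruncular samples of pregnant cows and from -0.38 to 0.77 (median -0.05) in cyclic ones, a difference of -0.45 (adjusted p = 0.036) that was under 1.5-fold and went the other way on slide 7 (0.37, against -0.18 on slide 10). In intercaruncular tissue it did not pass, and on slide 2 its difference was 0.87. SLC11A1, the macrophage form, had the widest caruncular spread of the group, from -2.37 to 1.72 in cyclic cows, and did not pass in either tissue. Of 19 probes of other iron handling genes, 2 passed in caruncular tissue, both higher: HEPH, the ferroxidase that works with ferroportin (0.69, SE 0.19, adjusted p = 0.0093), and TFRC, the transferrin receptor (0.85, SE 0.27, adjusted p = 0.023), whose other probe did not pass (0.44, adjusted p = 0.308). In intercaruncular tissue 1 passed, the iron-binding protein TF, which was lower (-0.69, SE 0.17, adjusted p = 0.0073).

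These partner calls were open to the slides as well. HEPH kept its call with slide as a random block, while TFRC (0.79, adjusted p = 0.100) and TF (-0.65, adjusted p = 0.0774) lost theirs at about the same size. All 3 ended with slide as a fixed block, at 1.17 (adjusted p = 0.468) for HEPH, 0.60 (adjusted p = 0.857) for TFRC and -0.07 (adjusted p = 0.974) for TF. The TF call also ended with the alternative background correction (-0.45, under the fold minimum).

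Zinc carriers fall into exporters from the cytosol (SLC30) and importers into it (SLC39). SLC39A2, a plasma membrane importer, ran from -0.20 to 1.23 (median 0.73) in caruncular samples of pregnant cows and from -1.25 to 0.89 (median -0.65) in those of cyclic cows. In intercaruncular samples it ran from -0.21 to 1.53 (median 0.43) and from -1.13 to 0.45 (median -0.72). The groups overlapped, since several cyclic cows were as high as pregnant ones, but all 12 pregnant cows lay above the cyclic mean in each tissue. SLC39A2 rose by 1.02 (SE 0.26, adjusted p = 0.0061) in caruncular and by 1.05 (SE 0.21, adjusted p = 0.00125) in intercaruncular tissue. On slides 7, 10 and 2 the differences were 0.36, 1.92 and 1.57. Within sessions they were 0.98 and 1.32 in caruncular and 0.93 and 2.16 in intercaruncular tissue, where the 2.16 set 1 pregnant against 1 cyclic array. The adjusted p was 0.922 and 0.254 with slide as a fixed block, and 0.0363 and 0.00951 with slide as a random block.

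Several other zinc carriers had an adjusted p under 0.05 at less than 1.5-fold. SLC39A5, a basolateral importer of epithelia, differed by -0.53 (SE 0.11, adjusted p = 0.0014) in caruncular and by -0.43 (SE 0.10, adjusted p = 0.0050) in intercaruncular tissue. In each tissue 8 of 12 pregnant cows lay below every cyclic cow. On the mixed slides 7 and 2, which held the same cows, the difference was near 0 (-0.05 and -0.07), against -0.53 on slide 10. SLC39A14, which also takes up iron and manganese, differed by -0.54 (SE 0.11, adjusted p = 0.0017) in intercaruncular tissue, and SLC30A7 and SLC30A5, which load zinc into the secretory pathway, by 0.35 and -0.34 in caruncular tissue (-0.01 and -0.34 on slide 7). SLC30A1, the plasma membrane zinc exporter, ran from -1.42 to 0.66 over all groups and SLC39A8, an importer of zinc and manganese, from -0.84 to 0.54, and neither passed in a pregnancy comparison. Among 8 probes for metallothioneins, copper chaperones and the like, limma called 0 in either tissue, while at any size CCS (-0.36) in caruncular and MTF1 (-0.37) in intercaruncular tissue had an adjusted p under 0.05.

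**Figure D1:**
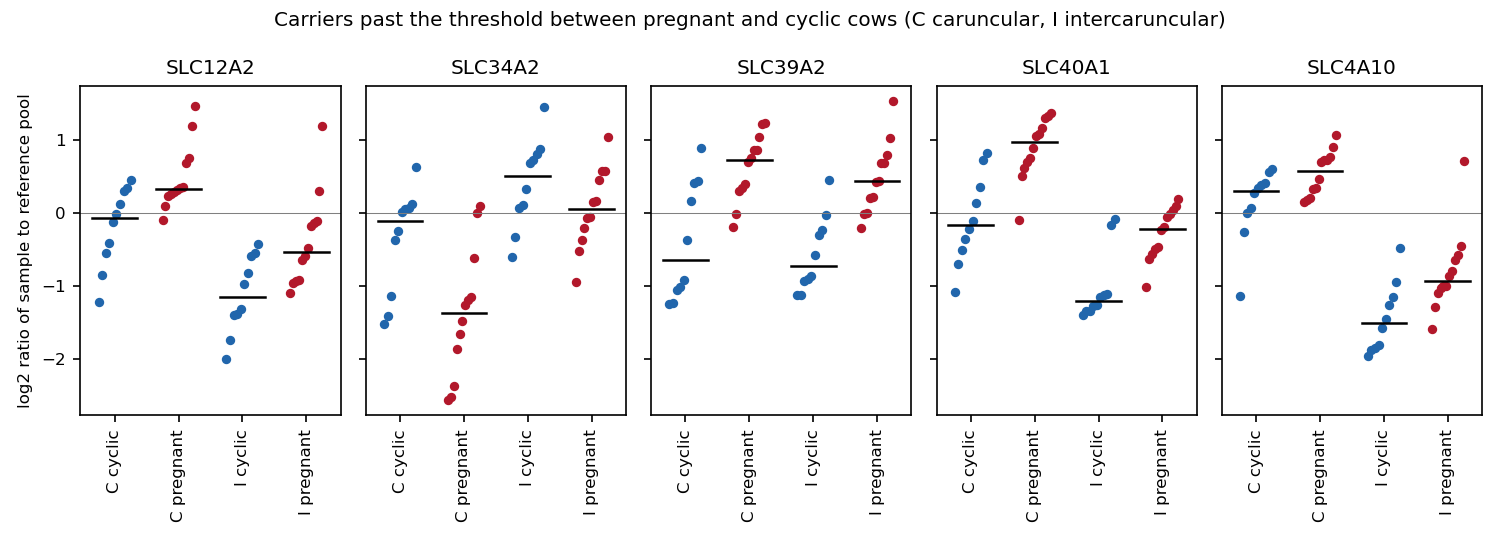
Log2 ratio to the reference pool (vertical axis) of the 5 carriers past the threshold between pregnant (red) and cyclic (blue) cows, 1 point per cow, with C for caruncular and I for intercaruncular samples and a bar at each median. SLC39A2 and SLC40A1 had higher medians in pregnant cows in both tissues, and for every carrier the pregnant and cyclic groups of the same tissue overlapped.

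The copper carrier SLC31A2, which acts on intracellular copper stores, was also higher in pregnant cows but stayed under the fold minimum. It ran from -0.73 to 0.24 (median -0.24) in caruncular samples of pregnant cows and from -1.18 to -0.23 (median -0.75) in cyclic ones, and from -0.51 to 0.63 (median 0.14) against -0.91 to -0.09 (median -0.29) in intercaruncular samples. The intercaruncular groups were close to separate, with 11 of 12 pregnant cows above every cyclic cow. The differences were 0.50 (SE 0.12, adjusted p = 0.0042) and 0.54 (SE 0.13, adjusted p = 0.0048). On slides 7, 10 and 2 they were 0.83, -0.25 and 0.23, so slide 10 went the other way, and within sessions they were 0.50 and 0.08 in caruncular and 0.58 and 0.06 in intercaruncular tissue.

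In the cation-chloride family, SLC12A2 brings sodium, potassium and chloride into cells and supplies chloride for fluid secretion. Its probe A_73_105998 ran from -0.11 to 1.46 (median 0.33) in caruncular samples of pregnant cows and from -1.23 to 0.44 (median -0.07) in cyclic ones. In intercaruncular samples it ran from -1.10 to 1.18 (median -0.54) and from -2.01 to -0.42 (median -1.15). All 12 pregnant cows lay above the cyclic mean in each tissue, while 4 and 5 of them lay above every cyclic cow. The probe rose by 0.69 (SE 0.20, adjusted p = 0.016) and by 0.74 (SE 0.24, adjusted p = 0.034). The other SLC12A2 probe, A_73_108692, did not pass in either tissue, with differences of 0.05 and 0.19, so the probes of this gene disagreed.

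The caruncular call of SLC12A2 also depended on 1 cow and on the slides. Without the single-slide cyclic cow its difference was 0.57, under the fold minimum, and with slide as a random block the caruncular call had an adjusted p of 0.0574 (difference 0.69) and the intercaruncular call one of 0.0730 (0.87). With slide as a fixed block these were 0.913 (0.29) and 0.463 (0.97). On slides 7, 10 and 2 the differences were 0.29, 1.06 and 0.97. Within sessions they were 0.61 and 1.24 in caruncular and 0.58 and 2.50 in intercaruncular tissue, where the 2.50 set 1 pregnant against 1 cyclic array. SLC12A4, the housekeeping potassium-chloride exporter, did not pass, with caruncular medians of 0.23 and 0.45. None of 15 probes for kinases and scaffolds that regulate these carriers passed in either tissue by limma, although SGK2 (-0.57) and 1 of 2 probes each of OXSR1 (0.30) and WNK1 (-0.31) had an adjusted p under 0.05 in caruncular tissue at less than 1.5-fold.

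Among phosphate carriers, SLC34A2, an apical sodium-phosphate cotransporter of epithelia, had the single caruncular call that was lower in pregnant cows. Probe A_73_118765 ran from -2.56 to 0.09 (median -1.37) in pregnant and from -1.52 to 0.62 (median -0.12) in cyclic cows. The groups overlapped widely, and 5 pregnant cows lay below every cyclic cow. The difference was -1.004 (SE 0.33, adjusted p = 0.029). It went in opposite directions on the mixed slides, 0.71 on slide 7 and -2.60 on slide 10, and with slide as a fixed block it was 0.71 (adjusted p = 0.857), an estimate that rested on slide 7 with its single cyclic sample. With slide as a random block it was -0.77 (adjusted p = 0.199), and within sessions -1.13 and -1.43. In intercaruncular tissue it did not pass (-0.35, adjusted p = 0.312), and the other SLC34A2 probe reached the signal minimum in no sample.

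The ubiquitous phosphate importers did not pass. SLC20A1 had group medians from -0.50 to -0.23, and SLC20A2 differed by -0.38 (adjusted p = 0.015) and -0.44 (adjusted p = 0.020), each under 1.5-fold. Of 11 probes for other calcium and phosphate handling genes, 2 passed in caruncular tissue, both for ENPP1, which makes pyrophosphate (0.60, adjusted p = 0.00032, and 0.61, adjusted p = 0.021). The first call ended in 1 of 14 alternatives, slide as a fixed block (0.80, adjusted p = 0.336). The second, probe A_73_109405, ended in 5 of 14. These included Welch's t-test (adjusted p = 0.0612), the alternative background correction (0.56) and slide as a fixed block (0.47, adjusted p = 0.791). The others were the fits without the single-slide cyclic (0.48) or pregnant cow (0.579). In intercaruncular tissue 1 passed, the hormone PTHLH, which was lower (-0.66, SE 0.23, adjusted p = 0.045). That call ended in 7 of 14 alternatives, among them Welch's t-test (adjusted p = 0.0878). The tested sodium-calcium exchangers, SLC24A5 and SLC24A6 (a mitochondrial carrier now named SLC8B1), did not pass in either tissue.

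Bicarbonate carriers gave 1 call. Probe A_73_116702, named SLC4A10 in the file, a sodium-driven bicarbonate carrier best known from brain, carries a gene number that now belongs to SLC4A7, so which of these genes it reads is uncertain. In intercaruncular tissue it ran from -1.59 to 0.71 (median -0.93) in pregnant and from -1.97 to -0.48 (median -1.52) in cyclic cows. The groups overlapped, and only 2 pregnant cows lay above every cyclic cow. It rose by 0.64 (SE 0.22, adjusted p = 0.039), but it was well above background in only 8 of 12 pregnant and 3 of 10 cyclic cows, and it passed the filter through its caruncular samples, so this difference is no measure of size. The call ended without the single-slide pregnant cow (0.50), with Welch's t-test (adjusted p = 0.052) and with the alternative background correction (0.22, adjusted p = 0.196). It also ended with no filter (adjusted p = 0.0550) and with slide as a random (0.64, adjusted p = 0.137) or fixed block (0.34, adjusted p = 0.818), the fixed estimate being that of slide 2, and within sessions the difference was 0.55 and 1.66.

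The other carriers of that family did not pass. The probe named SLC4A7, a sodium-bicarbonate importer, differed the other way in caruncular tissue, by -0.30 (SE 0.08, adjusted p = 0.0080), and SLC4A3, an anion exchanger, by -0.25 (adjusted p = 0.048) in intercaruncular tissue. SLC4A4, the main epithelial sodium-bicarbonate cotransporter, spread from -1.96 to 2.29 in intercaruncular cyclic cows alone. Of 7 probes for acid-base partners, 2 passed in caruncular and 3 in intercaruncular tissue. CA8, a carbonic anhydrase relative without enzyme activity, was lower in both (-1.71, adjusted p = 4.9e-05, and -1.47, adjusted p = 0.00050), the membrane-bound CA4 was higher in both (0.76, adjusted p = 0.015, and 0.64, adjusted p = 0.019), and the chloride channel CFTR was higher in intercaruncular tissue (0.68, adjusted p = 0.018). CA8 kept both calls with slide as a random block, while CA4 (0.73 and 0.67, adjusted p = 0.0725 and 0.104) and CFTR (0.76, adjusted p = 0.0781) lost theirs at about the same size. All of these ended with slide as a fixed block, with CA8 at -0.36 and -0.39 (adjusted p = 0.919 and 0.888), CA4 at 0.54 and 0.82 (adjusted p = 0.861 and 0.606) and CFTR at 1.18 (adjusted p = 0.410).

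**Figure D2:**
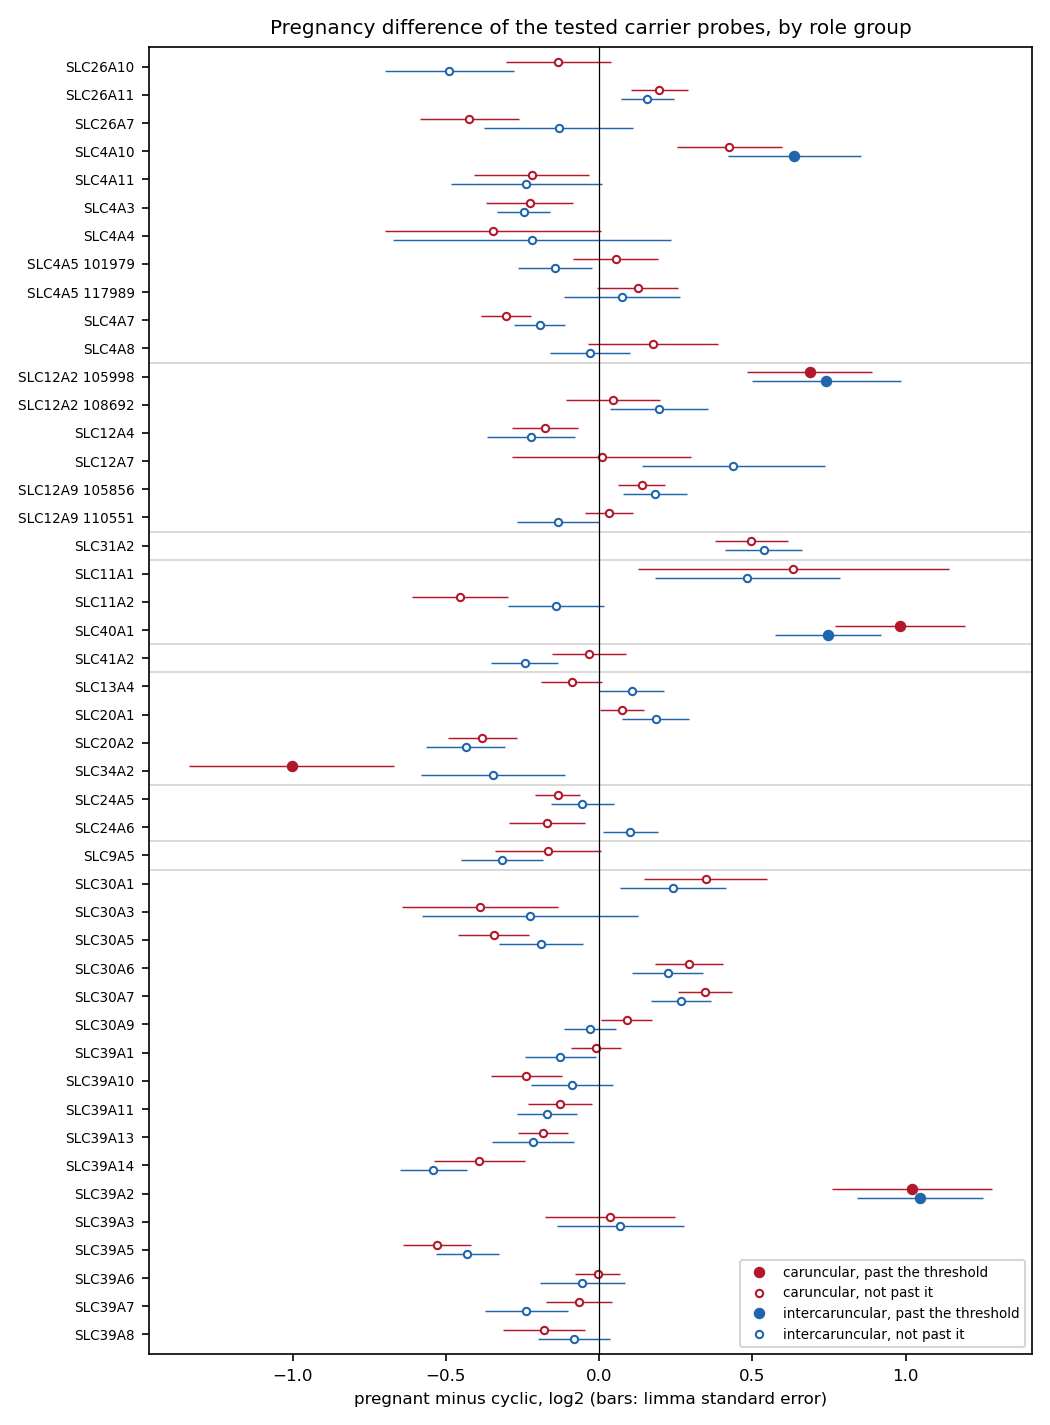
Pregnant minus cyclic log2 difference (horizontal axis) of 46 tested carrier probes, ordered by role group and parted by grey lines, in caruncular (red) and intercaruncular (blue) tissue, with bars of 1 limma standard error. Filled points passed the threshold, 4 in each tissue, and of these all but SLC34A2 lay to the right of 0.

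Cell type markers moved with pregnancy in the same samples, and in tissue RNA fewer cells of a type and less RNA per cell cannot be told apart. Smooth muscle markers were lower in 5 of 6 probes in each tissue, with a median difference of -1.05 in caruncular and -1.06 in intercaruncular tissue. Their summed signal, on a log2 scale, ran from 13.98 to 16.58 in caruncular samples of pregnant cows and from 15.55 to 16.90 in cyclic ones, and from 14.03 to 16.32 against 15.44 to 16.83 in intercaruncular samples, with ACTA2 the brightest. Endothelial markers were lower in 3 of 7 probes in each tissue (median difference -0.45 and -0.49, summed signal 14.63 to 16.24 against 15.31 to 16.14, and 14.88 to 15.90 against 15.31 to 16.05, EMCN the brightest).

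Epithelial markers split, since 2 of 8 were higher and 3 lower in caruncular tissue (KRT7 -2.07), and 2 were higher and 1 lower in intercaruncular tissue. Their summed signal ran from 15.26 to 16.27 in pregnant and from 15.75 to 16.61 in cyclic caruncular samples, and from 15.98 to 16.87 against 16.08 to 16.57 in intercaruncular ones, with TACSTD1 the brightest. Stromal markers also split, with 2 of 10 probes higher and 1 lower in caruncular tissue and 1 higher and 3 lower in intercaruncular tissue (DCN the brightest). Leukocyte markers other than CD163 leaned to 1 side, with 9 of 9 probes above 0 in caruncular tissue (median difference 0.41) and 8 of 9 in intercaruncular tissue (0.31). Of these, CSF1R, the brightest, passed in each tissue, and the list's summed signal ran from 14.65 to 16.11 in pregnant and from 14.35 to 15.59 in cyclic caruncular samples, and from 14.44 to 15.54 against 14.06 to 15.21 in intercaruncular ones. The leukocyte list has 10 tested probes, but CD163 was counted with the iron handling genes, and it passed in neither tissue. Ciliated cell markers were lower in 1 of 4 probes in caruncular tissue (median difference -0.88) and in 0 of 4 in intercaruncular tissue by limma.

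Red cell and conceptus markers had 1 tested probe each, HBG and PAG1, and limma called 0 of them in either tissue. The red cell gene ALAS2 and the conceptus genes PAG2, PAG11, TKDP1 and TKDP4 reached the signal minimum in no sample. Summed signals were 5.36 to 7.85 and 5.95 to 8.39 for the red cell list, and 8.30 to 9.35 and 7.74 to 9.95 for the conceptus list, in caruncular samples of pregnant and cyclic cows. The part of these cell types in the differences of the carriers was not tested.

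The tissues were compared within each cow to find carriers that differ between caruncular and intercaruncular endometrium, subject to the slides and sessions described above. In cyclic cows 7 of 49 member probes passed, against 13.2% of all tested probes, 4 of them higher in caruncular tissue (7.52% of all probes) and 3 lower (5.72%), and 21 had an adjusted p under 0.05 at any size (54.0%). In pregnant cows 9 passed, against 17.7%, with 5 higher (9.42%) and 4 lower (8.26%), and 29 probes of 28 genes at any size (61.4%). The shares past the threshold, 14.3% and 18.4% of the member probes, again lay near those of all probes. At any size the share of the members was 59.2% in pregnant cows but 42.9% in cyclic cows, under the 54.0% of all probes. That gap was not tested. The median difference of the members was 0.05 in both groups, against -0.02 over all probes.

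SLC40A1, the iron exporter, was higher in caruncular tissue in every cow of both groups. Its within-cow difference, caruncular less intercaruncular, ran from 0.03 to 2.09 (median 0.91) in 10 cyclic cows and from 0.14 to 1.90 (median 1.22) in 12 pregnant cows. The mean difference was 0.93 (SE 0.17, adjusted p = 0.00095) and 1.17 (SE 0.13, adjusted p = 8.0e-06). On single slides it was 0.89 in the single-slide cyclic cow and 1.19 in the single-slide pregnant cow, close to the medians of all cows. SLC11A1 and SLC11A2 did not pass in either group, and SLC11A1 was 1.77 and 2.54 in the single-slide cows, opposite to its means of -0.48 in cyclic and -0.33 in pregnant cows. Of 19 iron handling probes 4 passed in cyclic cows (2 higher, 2 lower) and 8 in pregnant cows (4 higher, 4 lower).

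Among zinc carriers, SLC39A6, a plasma membrane importer, was higher in caruncular tissue in every cow. Its within-cow difference ran from 0.33 to 1.29 (median 0.80) in cyclic and from 0.43 to 1.19 (median 0.92) in pregnant cows. In pregnant cows its caruncular ratios (0.18 to 0.76) and its intercaruncular ratios (-0.86 to 0.21) overlapped only at their edges, and in cyclic cows (0.30 to 0.71 against -0.82 to 0.20) they did not overlap. The means were 0.82 (SE 0.10, adjusted p = 0.00017) and 0.87 (SE 0.08, adjusted p = 3.3e-06). On single slides the differences were 0.40 and 0.43, in the same direction and among the lowest of each group.

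The zinc carriers SLC30A3, which loads zinc into vesicles, and SLC39A5 were lower in caruncular tissue. SLC30A3 had within-cow differences from -2.52 to -0.11 (median -0.94) in cyclic and from -2.20 to 0.15 (median -1.43) in pregnant cows, with means of -1.04 (SE 0.18, adjusted p = 0.00083) and -1.20 (SE 0.18, adjusted p = 6.6e-05). All 10 cyclic and 11 of 12 pregnant cows had the lower value in caruncular tissue, and the single-slide values were -1.14 and -0.36. SLC39A5 ran from -0.88 to -0.06 (median -0.72) in cyclic and from -1.77 to -0.10 (median -0.73) in pregnant cows, all in the called direction, with means of -0.66 (SE 0.07, adjusted p = 0.00013) and -0.76 (SE 0.11, adjusted p = 3.8e-05). Its 2 single-slide values, -0.06 and -0.10, were the smallest of each group, so on 1 slide the difference was near 0. The call in cyclic cows ended with the alternative background correction (-0.51). Of 8 other zinc and copper handling probes limma called 0 in either group.

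SLC34A2, the epithelial phosphate cotransporter, was lower in caruncular tissue in 9 of 10 cyclic and 11 of 12 pregnant cows. Its within-cow difference ran from -2.14 to 0.96 (median -0.84) and from -2.73 to 0.05 (median -1.49). The mean was -0.79 (SE 0.26, adjusted p = 0.021) and -1.45 (SE 0.20, adjusted p = 2.9e-05). The single-slide values, -2.14 and -0.68, had the same direction. Of 11 calcium and phosphate handling probes 2 passed in each group, ENPP1 and PTHLH, both higher in caruncular tissue.

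The carriers SLC12A2 and SLC4A10 passed in both groups, but in the single-slide cows, 1 in each group, their differences were near 0 or went the other way, much as for SLC39A5. Probe A_73_105998 of SLC12A2 had within-cow differences from 0.09 to 1.73 (median 0.92) in cyclic and from -0.84 to 1.79 (median 1.01) in pregnant cows, with means of 0.92 (SE 0.15, adjusted p = 0.00046) and 0.87 (SE 0.17, adjusted p = 0.00065). The lowest value of each group was its single-slide cow, 0.09 in the single-slide cyclic cow and -0.84 in the single-slide pregnant cow, and the other SLC12A2 probe did not pass and leaned the other way (-0.10 in cyclic cows, adjusted p = 0.415, and -0.25 in pregnant cows, adjusted p = 0.054, with single-slide values of 0.06 and -0.70). The SLC4A10 probe ran from -0.20 to 2.52 (median 1.84) and from 0.01 to 1.94 (median 1.39). Here too the single-slide cows were the lowest, at -0.20 and 0.01, while every other cow was above 0. The probe passed the filter through its caruncular samples, which were 21 of the 25 that reached the signal minimum. In intercaruncular tissue 0 of 10 cyclic and 4 of 12 pregnant cows reached it, and 3 and 8 were well above background. Its differences are therefore no measure of size (means of 1.56 and 1.35, but 0.75 and 0.78 with the alternative background correction), although the counts of 7 and 9 include it. The calls of both carriers therefore rested on cows whose tissues were on different slides.

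SLC41A2, a magnesium carrier, passed in pregnant cows and was higher in caruncular tissue in 11 of 12 of them, from -0.11 to 0.99 (median 0.63), with a mean of 0.59 (SE 0.09, adjusted p = 7.3e-05) and single-slide values of 0.43 in the single-slide pregnant cow and 0.73 in the single-slide cyclic cow. In cyclic cows its mean had the same direction (0.38, under 1.5-fold), and the groups were not shown to differ (0.21, adjusted p = 0.404). The call sat at the fold minimum and ended in 3 of 11 alternatives, at 0.49 with the alternative background correction and at 0.58 with the deposited matrix and with centring on the tested probes. Of the regulators, 2 of 15 probes in cyclic and 3 in pregnant cows passed, all lower in caruncular tissue, and of 7 acid-base probes CA8 was lower and CA5B higher in both groups. The CA8 call in cyclic cows needed the cow as a block, since without it the adjusted p was 0.0737.

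**Figure D3:**
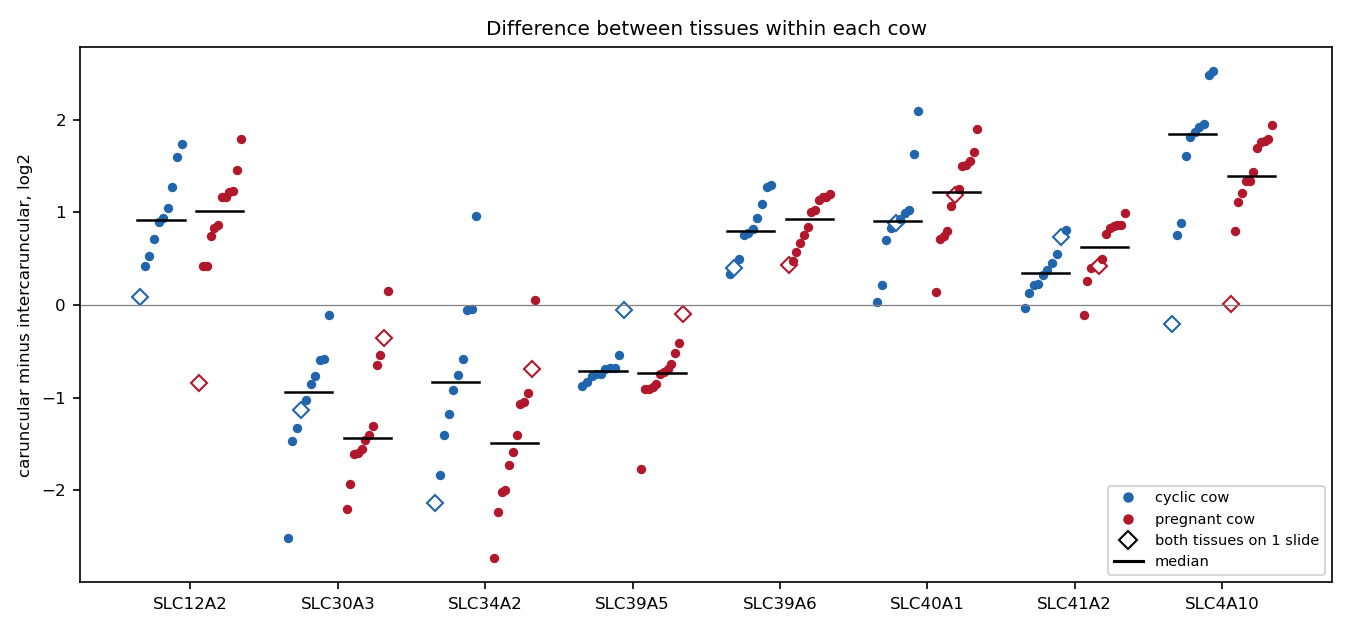
Caruncular minus intercaruncular log2 difference (vertical axis) within each cow for 8 carriers past the threshold between tissues, cyclic cows in blue and pregnant cows in red, bars at the medians. Open diamonds are the cows with both tissues on 1 slide, which were the lowest values for SLC12A2 and SLC4A10 (-0.84 and -0.20) and near the medians for SLC40A1.

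Cell type markers also differed between the tissues. Stromal markers were higher in caruncular tissue in 6 of 10 probes in cyclic and 8 of 10 in pregnant cows, with median differences of 0.65 and 0.97. Ciliated cell markers were lower in 3 of 4 and 4 of 4 probes (median -1.39 and -2.06), and their summed signal ran from 7.22 to 10.92 in caruncular and from 10.63 to 12.11 in intercaruncular samples of pregnant cows, and from 8.50 to 11.48 against 10.13 to 12.72 in cyclic ones, with SPAG6 the brightest. Epithelial markers were lower in 1 of 8 probes in cyclic cows, and in pregnant cows 6 were lower and 1 higher. The summed stromal signal ran from 17.87 to 18.82 in caruncular and from 17.72 to 18.48 in intercaruncular samples of pregnant cows, and from 18.10 to 18.75 against 18.19 to 18.64 in cyclic ones. Its median was higher in caruncular samples of pregnant cows (18.385 against 17.984). In cyclic cows it was lower there (18.313 against 18.408), unlike the stromal probe counts. Of the remaining lists, smooth muscle had 1 and 2 higher probes of 6, and leukocytes other than CD163 1 lower and 0 of 9. Red cells had 0 and 1 lower of 1, and endothelium (of 7) and conceptus (of 1) 0 in both by limma. The leukocyte marker CD163 was counted with the iron handling genes, and it passed in pregnant cows, lower in caruncular tissue (-0.70). The part of these cell types in the tissue differences of the carriers was not tested.

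Whether the pregnancy difference itself differed between the tissues was tested across all 22 cows. By limma 0 of 49 member probes passed, against 1.03% of all tested probes, and 2 had an unadjusted p under 0.05, against 17.3%. SLC24A6 was 1 of these (-0.27, SE 0.11), named here after its values were seen. SLC34A2, called in caruncular tissue alone, was therefore not shown to differ between tissues in its pregnancy difference (-0.66, limma adjusted p = 0.318). SLC4A10, called in intercaruncular tissue alone, gave -0.21 (limma adjusted p = 0.761). This test cannot decide for SLC4A10, since its probe was well above background in only 8 of 12 pregnant and 3 of 10 cyclic intercaruncular samples. Of the partner lists 0 probes passed, and of the markers KRT7 alone (-1.32, adjusted p = 0.025).

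Embryo size was compared among the 12 pregnant cows, at an adjusted p under 0.05 with no fold minimum. In caruncular tissue limma called 0 of 49 member probes and 0 (0%) of all tested probes, and 3 members had an unadjusted p under 0.05, against 6.93%. These were SLC30A3 (-0.96), SLC34A2 (-1.12) and SLC4A4 (-0.71), all lower with large embryos and named after their values were seen. SLC34A2 ran from -2.56 to -1.16 with 7 large embryos and from -1.67 to 0.09 with 5 small ones, so the groups overlapped. Partner and marker lists had 0 calls in this comparison.

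In intercaruncular tissue 1 of 49 passed, SLC30A6, against 3.70% of all tested probes, and 11 probes of 10 genes had an unadjusted p under 0.05, against 21.5%. SLC30A6 forms a complex that moves zinc into the Golgi. With large embryos its ratios were 0.01, 0.05, 0.09, 0.10, 0.14, 0.34 and 0.35, and with small embryos -0.57, -0.29, -0.26, -0.24 and -0.12. Every cow with a large embryo lay above every cow with a small one. The difference was 0.45 (SE 0.10, limma adjusted p = 0.033). Within slides it was 0.37 on slide 1 (1 large against 3 small), 0.62 on slide 2 (2 against 1) and 0.39 on slide 12 (3 against 1). Each of these values thus had a single cow on 1 side. In caruncular tissue the same probe ran from -0.06 to 0.33 with large and from -0.57 to 0.50 with small embryos, and did not pass. Whether the size difference differed between tissues was not tested.

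The call of SLC30A6 was close to the threshold. It ended when any 1 of 7 samples was left out (Intercaruncular_Pregnant_1943, Intercaruncular_Pregnant_3805, Intercaruncular_Pregnant_3807, Intercaruncular_Pregnant_3957, Intercaruncular_Pregnant_9246, Intercaruncular_Pregnant_932 or Intercaruncular_Pregnant_977), with differences from 0.38 to 0.46 and limma adjusted p from 0.051 to 0.083. The count of members went to 6 without the single-slide cow and to 4 without Intercaruncular_Pregnant_3956. The shares of all tested probes in those refits are not given here, so these counts are no result about the carriers as a set. Of the partners 1 of 2 probes of TFRC (1.09, SE 0.15, limma adjusted p = 0.0096, the other 0.21, adjusted p = 0.818) and CA4 (0.90, SE 0.18, limma adjusted p = 0.028) were higher and the ferric reductase CYBRD1 (-0.92, SE 0.17, limma adjusted p = 0.024) lower with large embryos. The CA4 call ended without any 1 of 5 of the samples named above (all but Intercaruncular_Pregnant_1943 and Intercaruncular_Pregnant_3957), with limma adjusted p up to 0.077. The endothelial marker PECAM1 (-0.93) and the stromal marker COL3A1 (-0.92) were lower, 1 of 7 and 1 of 10 probes of their lists, and their part was not tested.

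**Figure D4:**
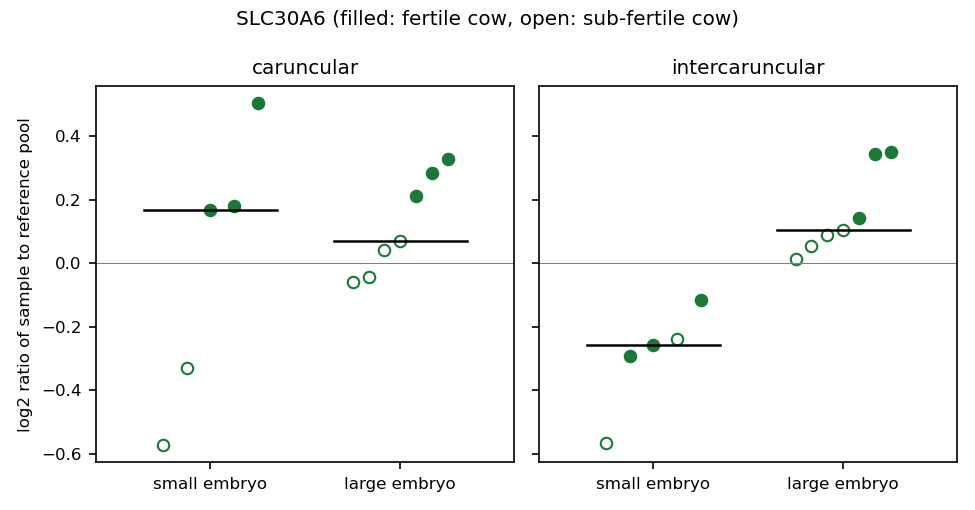
Log2 ratio of SLC30A6 to the reference pool (vertical axis) in 12 pregnant cows by embryo size, filled points for fertile and open points for sub-fertile cows, bars at the medians. Intercaruncular values with large embryos (0.01 to 0.35) lay above those with small embryos (-0.57 to -0.12), and caruncular values overlapped.

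Fertile and sub-fertile pregnant cows were compared by the same rule. The label followed the slides: slides 5 (caruncular) and 12 (intercaruncular) held 4 fertile cows each, slides 7 and 2 held 3 sub-fertile ones each, and only slides 6 and 1 held both, 2 of each. In caruncular tissue limma called 0 of 49 member probes and 0 (0%) of all tested probes, with 7 members at an unadjusted p under 0.05, against 13.8%. In intercaruncular tissue limma called 0 members, against 0.0476% of all tested probes, with 11 at an unadjusted p under 0.05, against 13.6%. The lowest adjusted p of a member was 0.277 for SLC30A6 in caruncular tissue and 0.156 for SLC12A4 in intercaruncular tissue.

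These 2 carriers did separate the labels in the samples at hand, as a description chosen after their values were seen. Caruncular SLC30A6 ran from 0.17 to 0.50 in 6 fertile cows and from -0.57 to 0.07 in 6 sub-fertile ones. Intercaruncular SLC12A4, the housekeeping potassium-chloride exporter, ran from -0.24 to -0.01 in fertile and from 0.10 to 0.28 in sub-fertile cows. In each case the groups did not overlap, yet the differences, 0.43 (SE 0.12) and -0.30 (SE 0.07), did not pass over all tested probes. Within the mixed slides 6 and 1 they were 0.30 and -0.31, which are also the estimates with slide as a fixed block (adjusted p = 0.7004 and 0.534). Of the partner lists only STC1, a phosphate-regulating hormone, passed, in intercaruncular tissue with both of its probes lower in fertile cows (-1.44 and -1.43). With slide as a fixed block both calls ended (-1.58 and -1.11, adjusted p = 0.357 and 0.356), and with slide as a random block 1 did (-1.45 and -1.34, adjusted p = 0.130 and 0.0352). Of the markers limma called 0.

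Over all 44 samples the median SD of the log2 ratio was 0.383 over the 49 tested member probes and 0.346 over all tested probes. The widest were SLC11A1 (SD 1.06), SLC4A4 (0.985) and SLC34A2 (0.976), and the narrowest were SLC30A9 (0.202), SLC26A11 (0.222) and SLC20A1 (0.223).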

How the data were processed

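Agilent arrays with a sample and a reference channel of 44 endometrial samples (48 arrays, 12 slides of 4) were analysed. Per the file headers, the authors extracted spot intensity values with Agilent Feature Extraction 9.5.3.1. The deposited log10 ratios of Cy5 (sample) to Cy3 (reference pool) were background-subtracted and LOWESS-normalised by that program. The authors also deposited a matrix of log2 ratios for 17855 probes, used as an alternative. Of its 48 columns, 40 equalled the scanner ratios after rounding, so their scale and direction were settled, while what changed the other 8 is unknown. Its column medians ran from -0.03 to 0.06, so it was not centred on its own median.

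The log10 ratios were turned to log2, averaged over spots of a probe that were not outliers (2 spots per probe), and centred on each array's median. That median was already exactly 0 on all 48 arrays, since 5.30% to 16.1% of probes carry a ratio of exactly 0, so the step changed nothing. Repeat arrays of 4 samples were averaged. Probes were tested when well above background with a processed sample signal of at least 80 in at least 22 of 44 samples, which kept 14717. The filter was first set on the raw mean signal (15686 probes) and was changed to the processed signal after the counts were seen, and the raw version was kept as an alternative. Signal over background had group medians of 21.9 (caruncular cyclic), 22.9 (caruncular pregnant), 11.7 (intercaruncular cyclic) and 15.4 (intercaruncular pregnant), and the number of arrays limits the precision.

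Differences were fitted with limma 3.58.1 in R 4.3.3 (lmFit and eBayes), the tissue comparison within cows. P-values were adjusted by Benjamini-Hochberg over the probes tested in each comparison, from 14714 to 14717. Pregnancy and tissue calls needed an adjusted p under 0.05 and at least 1.5-fold, and the others the adjusted p alone. Cow numbers in the labels pair the tissues: in 21 of 22 cows the caruncular sample correlated best with the same cow's intercaruncular sample (r of deviations from group means 0.109 to 0.869, median 0.613). Repeat arrays differed by at most 0.39 for a tested carrier. The fits were tested on simulated data. Alternatives were Welch's t-test, other filters, centring, background correction by normexp with loess (offset 50), the deposited matrix, slide and scan blocks, the fertility label as a covariate, and cows left out. The study's methods name a t-test without its variance form, applied to probes that passed a raw-signal filter.

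Names were those in the files, 15 of 84 from the gene name and 69 from the description. Of the 84 probes, 61 matched the RefSeq gene table by accession or gene number, and 3 of them a different symbol. Different probes of a gene were kept apart. Named were carriers past a threshold, 19 carriers fixed by role, and partner genes past a pregnancy threshold (at most 4 a list), except that some carriers are not reported here, although they stay in the counts. Any other was named after its values were seen. The partner and marker lists and the members were chosen with earlier results of these data known.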

Additional observations from a re-analysis of the deposited data

Results flagged for a closer look

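In groups of 4 to 10 samples, 9 of 76 groups tested held 1 sample far from the others, and chance alone flags about 1 in 20 groups. The cyclic cow with both tissues on 1 slide (Caruncular_Non-Pregnant_9786) was the sample in 4 of them. In caruncular samples of cyclic cows it was low for SLC12A4 at -0.48 (others 0.32 to 0.89) and for SLC4A10 at -1.15 (others -0.27 to 0.60). In intercaruncular samples it was low for SLC12A4 at -0.90 (others 0.04 to 0.83). Its tissue difference of SLC39A5 was -0.058 (others -0.88 to -0.54).

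The remaining 5 were in other cyclic cows. In intercaruncular samples SLC11A2 was -0.67 in Intercaruncular_Non-Pregnant_3972 (others -0.08 to 0.47), SLC30A1 was -1.07 in Intercaruncular_Non-Pregnant_3811 (others -0.48 to 0.13), HEPH was 1.02 in Intercaruncular_Non-Pregnant_9778 (others -0.66 to 0.22) and ENPP1 probe A_73_109405 was -0.075 in Intercaruncular_Non-Pregnant_9813 (others -0.72 to -0.40). In caruncular samples TFRC was -1.59 in Caruncular_Non-Pregnant_9813 (others -0.82 to -0.13).

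The pregnancy difference of the epithelial marker KRT7 was more negative in caruncular than in intercaruncular tissue by a tested difference of -1.32 (limma adjusted p = 0.0245). No carrier passed that test by limma, and 2 had an unadjusted p under 0.05.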

How the results depend on the processing

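Of 561 recomputed values of 44 named gene results, 500 kept their direction and their side of the threshold, 60 kept the direction only, and 1 changed direction: SLC34A2 with pregnancy in caruncular tissue was 0.71 with slide as a fixed block. The cause was not tested, and that estimate rests on 1 slide with a single cyclic sample. The pooled counts mix unlike alternatives. Of the 60 values, 18 came from slide as a fixed block and 10 from slide as a random block, of 22 values each. The raw-signal filter kept 44 of 44.

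The number of carriers called with pregnancy in caruncular tissue, 4, was 0 with slide as a fixed block and 2 as a random block (SLC39A2 and SLC40A1). In intercaruncular tissue the number, 4, was 1 with slide as a fixed block (SLC39A13). With slide as a random block there, the calls of SLC12A2 and SLC4A10 ended, and those of SLC39A2 and SLC40A1 were kept. Welch's t-test gave 4 and 3 after Benjamini-Hochberg at the same fold. With no filter the tissue comparisons gave 12 in cyclic cows (from 7) and 14 in pregnant cows (from 9), since dim probes were then tested. The fertility label as a covariate raised the intercaruncular embryo size count from 1 to 3, and slide raised it to 3 as a fixed and 4 as a random block. Leaving out 1 cow at a time gave 0 to 6 for that count and 0 to 0 in caruncular tissue. Leaving out either cow with both tissues on 1 slide, chosen after the data were seen, gave 3 to 4 and 4 to 6 for pregnancy in caruncular and intercaruncular tissue. A fixed slide block in the embryo size and fertility comparisons, the raw-signal filter and centring on tested probes were also added after the data were seen. Shares of all tested probes under these alternatives are not given, so the counts are no result about the carriers as a set.

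Without the replicate block (the cow), the tissue comparisons called 7 carriers in cyclic and 9 in pregnant cows and the test of pregnancy by tissue 0. Among the named results it ended 1 call, that of CA8 between tissues in cyclic cows (adjusted p = 0.0737). Signal over background was lowest in intercaruncular samples of cyclic cows (median 11.7), which limits the carriers that were dim there.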
